A study of Mus musculus with 6 samples.

Results

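The calcium/calmodulin-dependent kinase genes were followed in neutrophils sorted from mouse bone marrow: the CaMKII subunit genes Camk2a, Camk2b, Camk2d and Camk2g, the CaMKI genes Camk1 and Camk1d, the CaMKIV gene Camk4, and the upstream kinase genes Camkk1 and Camkk2. These 9 of the 46329 gene symbols in the files were taken by symbol. The set was put together because Camk2b had stood out between the groups in an earlier reading of the same libraries. The differences between groups are therefore given for these genes as descriptions, with no p-value. Calls among them are counted only beside the share over all genes, and nothing is read from them.

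Both groups held male wild-type (WT) mice. One was labelled Control and the other had gone through chronic unpredictable mild stress (CUMS), a series of changing mild stressors applied over 4 weeks, with 3 libraries in each. Sorting was by flow cytometry. The labels read here name no gate, strain or age, and do not say that replicates were separate animals, so errors and p-values measure the spread between these libraries, which may be technical. Each library held 78845457 to 109757558 estimated counts. Because the values 4, 8, 12 and 16 were over-represented (by 1.38 to 1.89 times), a read pair was taken to be worth about 4 counts, which gives 19711364 to 27439390 read pairs. The neutrophil label was met by its markers: the 12 neutrophil genes listed summed to 123000 to 135000 CPM (counts scaled to library size, with TMM factors) in Control and 105000 to 131000 CPM in CUMS, with 2 of them higher, 2 lower and 8 not past the threshold. The 2 higher were Elane, weakly expressed at a mean of 0.454 CPM in Control and 2.13 CPM in CUMS (4.69-fold), and Mmp9 (1.09-fold). The 2 lower were Ltf (0.925-fold) and Camp (0.827-fold).

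Calmodulin is a small calcium sensor. Loaded with calcium, it binds and opens CaMKI, CaMKII and CaMKIV, and the CaMKK kinases then phosphorylate the activation loop of CaMKI and CaMKIV, and also AMPK. CaMKII is different: its subunits assemble into a ring-like holoenzyme, and neighbouring subunits phosphorylate each other on a threonine of the regulatory segment, which keeps the enzyme active after calcium has fallen. The alpha and beta subunits (Camk2a, Camk2b) are best known from the brain, while the delta and gamma subunits (Camk2d, Camk2g) are found in many tissues. Granulocytes use calcium signals in chemotaxis, in the oxidative burst and in degranulation.

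Because the subunit genes are related in sequence, it was checked first whether their reads can be told apart. The stretch of 54 coding bases around the codon for that threonine (bases 25 to 27) is shown for 3 subunit genes, with every base at which they differ in capitals (GENCODE M21 transcripts, GRCm38).
Camk2b: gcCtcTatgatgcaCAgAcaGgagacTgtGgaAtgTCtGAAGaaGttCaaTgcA
Camk2d: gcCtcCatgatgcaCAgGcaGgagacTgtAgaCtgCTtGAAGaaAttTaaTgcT
Camk2g: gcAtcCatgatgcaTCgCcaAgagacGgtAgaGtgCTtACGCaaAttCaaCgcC
Even in this conserved segment 19 of the 54 bases differ among the 3 genes, and no run without a difference is longer than 8 bases. Camk2b differs from Camk2d at 9 bases and from Camk2g at 18. Over whole transcripts, 0 of the 9790 distinct 75-base words of Camk2b occur in a transcript of any other gene of that annotation, of the kinase family or outside it. Of its 9153 words of 30 bases, 9 (0.098%) occur in another of the 9 genes and 32 (0.35%) in a gene outside the 9. The same count of 0 at 75 bases held for the other 8 kinase genes except Camk1, of whose 6274 words 96 (1.53%) are shared with another gene. Camk1 overlaps the opposite-strand DNA repair gene Ogg1 by 232 exonic bases, and Camk4 overlaps 2310026I22Rik by 72. Whether the counts used strand is not stated, so reads of those overlaps could belong to either gene.

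In Control neutrophils the family was unevenly expressed. Per kb of annotated exon, Camk2g had the highest level at 16.6 ± 0.341 CPM per kb (SD, n = 3), followed by Camk1d at 10.4 ± 0.85, Camkk1 at 7.46 ± 0.403, Camkk2 at 4.69 ± 0.109 and Camk1 at 3.22 ± 0.25 CPM per kb. The other 4 genes lay far below. Camk2d measured 0.127 ± 0.00711, Camk2b 0.0482 ± 0.0129, Camk4 0.0414 ± 0.0393 and Camk2a 0.0189 ± 0.0147 CPM per kb. Neighbours in this order did not overlap between libraries, except Camk2b with Camk4 and Camk4 with Camk2a. With the longest transcript as the length, 6 of the 9 genes kept their rank: Camkk2 (10.5 CPM per kb) moved to the third place next to Camk1d (11.1), and Camk1 and Camkk1 (8.03 and 7.49) overlapped. In CUMS the order was the same with exon length except that Camk2b, at 0.209 ± 0.0726 CPM per kb, stood above Camk2d, at 0.143 ± 0.019, with overlapping libraries. With the longest transcript Camk2d stayed above Camk2b in CUMS (0.582 and 0.461 CPM per kb).

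**Figure D1:**
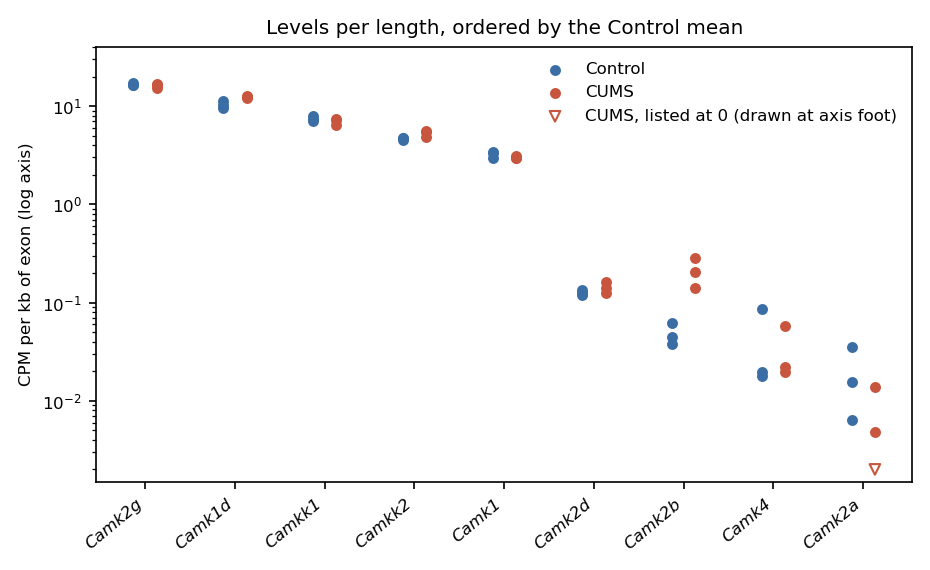
CPM per kb of exon (log axis) of the 9 kinase genes, ordered by the Control mean. Each point is 1 library (blue Control, red CUMS), and the open triangle is a library listed at 0. Camk2g, Camk1d, Camkk1, Camkk2 and Camk1 lie above 2.9 CPM per kb in every library, and the other 4 genes lie below 0.29.

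Camk2b, the beta subunit gene, was the member with the largest difference between groups. Its GRCm38 position is chromosome 11, 5969644 to 6066362, minus strand, with 15 annotated transcripts (10 protein-coding). Every value is a sum per gene and does not separate exons or UTRs. Control replicates 1 to 3 held 32, 59 and 29 estimated counts, about 8, 14.8 and 7.25 read pairs, and CUMS replicates 1 to 3 held 218, 206 and 137, about 54.5, 51.5 and 34.2 read pairs. Scaled, these were 0.408, 0.571 and 0.342 CPM in Control and 2.59, 1.85 and 1.27 CPM in CUMS. The groups did not overlap, and the lowest CUMS library was above the highest Control library by more than the whole range of the Control libraries. The means were 0.440 ± 0.118 and 1.90 ± 0.662 CPM (SD, n = 3), which is 4.29-fold or 2.10 ± 0.35 (SE) on the log2 scale. The gene remained a weakly expressed one, at rank 10735 of the 15777 genes tested by mean CPM. Of all genes tested, 63 had a larger log2 rise than Camk2b, 15 of them past the threshold.

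The other CaMKII subunit genes did not show such a difference. Camk2g, the gamma subunit gene (chromosome 14, 20734875 to 20794088), measured 104, 109 and 106 CPM in Control and 106, 108 and 99.0 CPM in CUMS, with overlapping groups and a log2 fold change of -0.03 ± 0.05 (SE), which turned to 0.014 without CUMS replicate 3. Camk2d, the delta subunit gene (chromosome 3, 126596302 to 126846326), measured 2.71, 3.03 and 2.82 CPM in Control and 3.66, 3.19 and 2.80 CPM in CUMS. The groups overlapped through CUMS replicate 3, and the log2 fold change was 0.17 ± 0.18 (SE). Camk2a, the alpha subunit gene (chromosome 18, 60925618 to 60988152), was at or under the floor of 3 read pairs, or 12 estimated counts, in 5 of 6 libraries (9, 27 and 4 counts in Control, 3, 0 and 11 in CUMS). It failed the filter on low counts, and no fold is given.

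**Figure D2:**
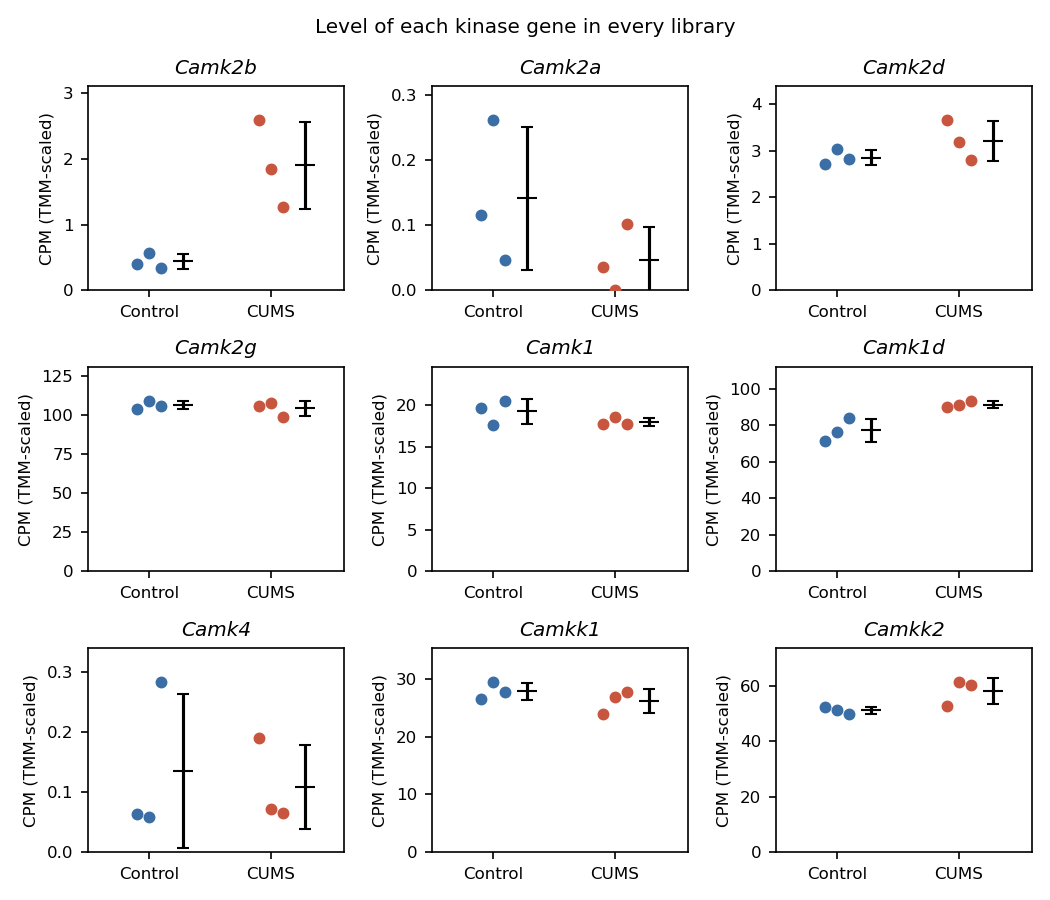
TMM-scaled CPM of each kinase gene in every library (points, in replicate order from left to right), with the mean and SD of each group in black, error bars clipped at 0. Each panel has its own linear axis from 0. Camk2b is at 0.342 to 0.571 CPM in Control and at 1.27 to 2.59 CPM in CUMS, and Camk2g is at 99.0 to 109 CPM throughout.

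Camk2b was also set against Camk2g and Camk2d within each library, and not against Camk2a, which failed the filter. Both ratios were higher in every CUMS library than in any Control library. The log2 ratio of Camk2b to Camk2g, centred on its Control mean, was -0.05, 0.36 and -0.32 in Control and 2.54, 2.02 and 1.62 in CUMS. Against Camk2d it was 2.17, 1.89 and 1.54 in CUMS, where the Control libraries ran from -0.30 to 0.30. Camk2g nevertheless supplied nearly all CaMKII transcript: 98.8% ± 0.178 of the summed CPM per kb of the 4 genes in Control and 97.9% ± 0.463 in CUMS. The share of Camk2b was 0.286% ± 0.0714 in Control and 1.24% ± 0.398 in CUMS (SD over 3 libraries), from 0.223% to 0.364% and from 0.882% to 1.67%. The sum of the 4 genes was 16.8 ± 0.368 CPM per kb in Control and 16.7 ± 0.818 in CUMS. The difference in Camk2b thus lay inside a CaMKII total whose group means differed by less than the SD between replicates.

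**Figure D3:**
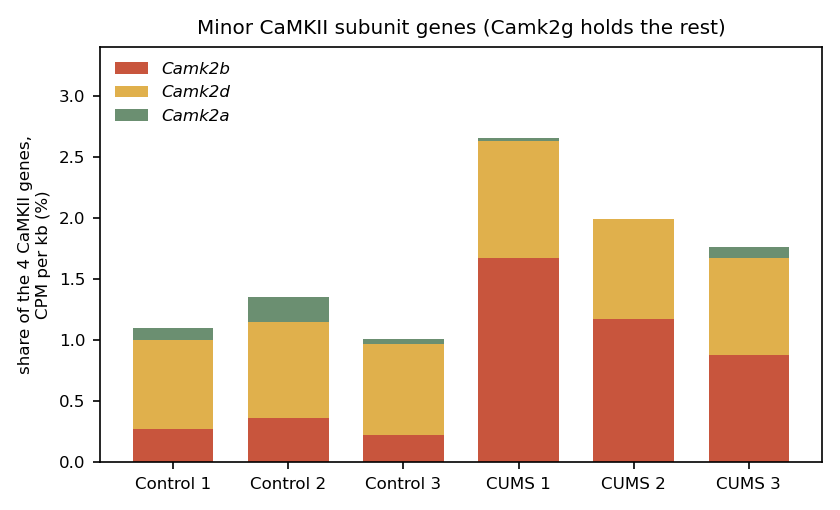
Shares of Camk2b, Camk2d and Camk2a in the summed CPM per kb of the 4 CaMKII genes, as stacked bars per library. Camk2g fills the rest of 100% and is not drawn. Camk2b takes 0.223% to 0.364% in the Control libraries and 0.882% to 1.67% in the CUMS libraries.

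Of the CaMKI genes, Camk1d differed more than Camk1. Camk1d encodes CaMKI delta, the CaMKI form known from granulocytes, and lies on chromosome 2 at 5293457 to 5714515. It measured 71.7, 76.4 and 84.2 CPM in Control and 89.8, 91.1 and 93.3 CPM in CUMS. All CUMS libraries were above all Control libraries, and the difference was small: 77.4 ± 6.31 against 91.4 ± 1.75 CPM (SD, n = 3), which is 1.18-fold or 0.24 ± 0.06 (SE) on the log2 scale. Camk1, the gene of CaMKI alpha (chromosome 6, 113334124 to 113343984), measured 19.7, 17.6 and 20.5 CPM in Control and 17.7, 18.6 and 17.7 CPM in CUMS, with overlapping groups (log2 fold change -0.10 ± 0.08). Camk4, best known from T cells and neurons (chromosome 18, 32934931 to 33191228), had 5, 6 and 24 estimated counts in Control and 16, 8 and 7 in CUMS. It was at or under the floor in 4 of 6 libraries and failed the filter.

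The upstream kinase genes differed little. Camkk2 (chromosome 5, 122731170 to 122779409) measured 52.3, 51.3 and 49.9 CPM in Control and 52.8, 61.4 and 60.2 CPM in CUMS. The groups did not overlap, although CUMS replicate 1, at 52.8 CPM, was close to Control replicate 1, at 52.3, and the log2 fold change was 0.18 ± 0.06 (SE). Camkk1 (chromosome 11, 73019008 to 73042073) measured 26.5, 29.4 and 27.6 CPM in Control and 23.9, 26.8 and 27.7 CPM in CUMS, overlapping groups with a log2 fold change of -0.09 ± 0.08.

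**Figure D4:**
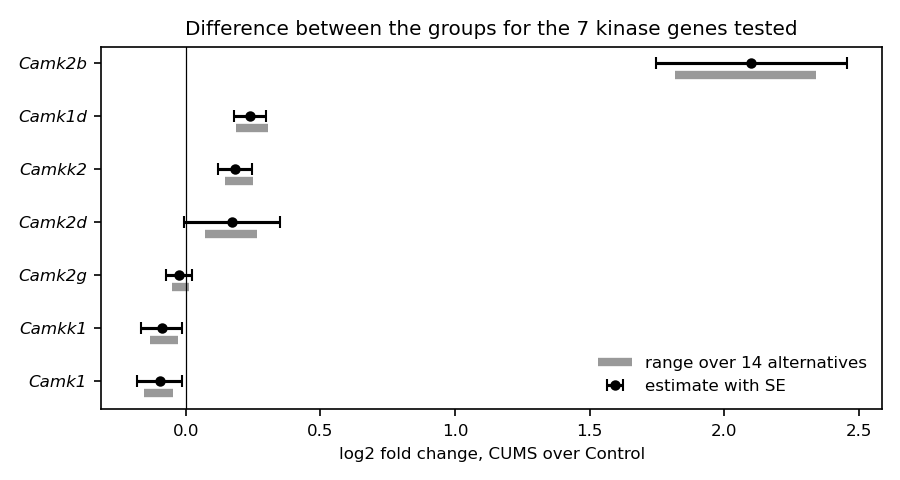
Log2 fold change of CUMS over Control for the 7 kinase genes that passed the filter on low counts (points, with SE), above the range over 14 other ways of processing the data (grey bars). Camk2b is at 2.10 with a range of 1.82 to 2.34, and the other 6 genes lie between -0.10 and 0.24.

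In all, 7 of the 9 genes passed the filter. Their median log2 fold change was 0.17 (0.07 without Camk2b), beside -0.0073 over all genes tested. In edgeR's quasi-likelihood fit over all genes, 2 of the 7, Camk2b and Camk1d, were past an adjusted p of 0.05, both higher in CUMS, where 4.50% of all genes tested were past it, 2.36% higher and 2.14% lower. None of the 7 was called lower (0 lower at an unadjusted p under 0.05 with edgeR, 0 with DESeq2), although 3 had a log2 fold change below 0. Groups did not overlap for 3 of the 7, all higher in CUMS, and for 22.9% of all genes tested (11.5% higher). The set was chosen from this contrast, so nothing is read from these counts. The count of 2 includes Camk1d, whose adjusted p was above 0.05 without Control replicate 1, Control replicate 2 or any 1 of the CUMS replicates.

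Markers of other blood cells that passed the threshold were higher in CUMS, except Xbp1, which was lower. In these bulk samples, more or fewer cells of a type and more or less RNA per cell cannot be told apart. Of 12 erythroid markers, 8 rose and the other 4 did not pass, and their summed level was 1300 to 1870 CPM in Control and 2520 to 3010 CPM in CUMS. Of 9 eosinophil markers, 2 rose: Prg2, the major basic protein gene, from 0.885 to 4.82 CPM and Epx, the eosinophil peroxidase gene, from 0.119 to 1.49 CPM (adjusted p = 6.9e-05 and 0.016, edgeR). All 9 were higher in CUMS, with a median log2 fold change of 1.44 (5 with an unadjusted p below 0.05 with edgeR, and 1 called by DESeq2). The sum over the 9 was 44.9 to 51.9 CPM in Control and 51.6 to 60.3 CPM in CUMS. Of 10 monocyte and macrophage markers 2 rose, with sums of 208 to 214 and 235 to 240 CPM. With edgeR no gene passed among 10 B cell markers (1 with an unadjusted p below 0.05, and 1 by DESeq2), whose sums were 22 to 30.3 and 32.3 to 37.6 CPM. All 10 B cell markers were higher in CUMS, with a median log2 fold change of 0.33. Within CUMS, Camk2b was highest in replicate 1, where the erythroid sum was also highest (3010 CPM, against 2520 and 2530), while Prg2 measured 4.93, 4.06 and 5.47 CPM in CUMS replicates 1 to 3. In the other direction, Xbp1, a transcription factor gene of secretory cells, was the 1 gene of 5 tested plasma cell markers that passed. It fell by 0.29 on the log2 scale, from 80.7 to 65.9 CPM (adjusted p = 0.0063, edgeR). Most of that list did not share the fall: the median log2 fold change of the 5 was 0.30, with 3 of them higher in CUMS. Of 7 tested basophil and mast cell markers none passed with edgeR (3 with an unadjusted p below 0.05, and 2 by DESeq2), with a median log2 fold change of -0.41 and sums of 38.6 to 43.2 CPM in Control and 35.1 to 40.4 in CUMS. Of 4 tested markers of marrow stroma and endothelium none passed with edgeR (3 with an unadjusted p below 0.05, and 1 by DESeq2). For T and NK cells, dendritic cells, megakaryocytes and progenitors, with 6, 6, 4 and 5 tested markers, edgeR called 0 genes, also at an unadjusted p below 0.05, and DESeq2 0. The part of these cells in the Camk2b difference was not tested. Of 8 neuronal markers, the cell type in which Camk2b is best known, 7 were at 0 in every library, Snap25, Syt1 and Tubb3 among them, and the 8 summed to at most 0.19 CPM.

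Neither of the tested neighbours of Camk2b on chromosome 11 passed the threshold. Ykt6, a vesicle fusion gene that ends 1864 bases from Camk2b, was at 86.9 ± 3.24 in Control and 89.6 ± 3.71 CPM in CUMS (log2 fold change 0.05 ± 0.05, adjusted p = 0.75, edgeR). Nudcd3, on the other side at a distance of 39329 bases, was at 25.4 ± 0.78 and 25.1 ± 2.55 CPM, a log2 fold change of -0.02 ± 0.08 (edgeR adjusted p = 0.95). Of the other nearest protein-coding genes, Myl7 and Npc1l1 were listed at 0 in every library, and A730071L15Rik has no row.

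The RefSeq promoter table (GRCm38.p6) held 6 of the 9 genes, with 7 start sites. The 250 bases upstream of the Camk2b start in that table and of the start of Camk1d that lies farther upstream are shown because these were the members with the clearest differences. The GENCODE span of Camk2b reaches 6066362, so the stretch shown for Camk2b lies inside that span. Each stretch is written 5′ to 3′ on the minus strand, with matches to the GC box GGGCGG on either strand in capitals.
Camk2b, chr11:6065749-6065998: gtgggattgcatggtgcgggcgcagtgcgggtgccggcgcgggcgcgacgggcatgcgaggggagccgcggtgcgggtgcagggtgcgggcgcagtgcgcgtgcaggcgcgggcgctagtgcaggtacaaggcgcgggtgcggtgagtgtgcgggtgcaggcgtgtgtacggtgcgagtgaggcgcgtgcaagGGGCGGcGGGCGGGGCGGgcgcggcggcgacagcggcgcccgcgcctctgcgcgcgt
Camk1d, chr2:5714763-5715012: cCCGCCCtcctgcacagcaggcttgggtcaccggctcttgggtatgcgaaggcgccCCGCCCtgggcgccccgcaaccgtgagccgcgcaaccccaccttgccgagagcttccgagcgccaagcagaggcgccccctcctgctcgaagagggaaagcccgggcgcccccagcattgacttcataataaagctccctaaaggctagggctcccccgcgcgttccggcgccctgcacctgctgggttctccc
The 300-base window of Camk2b, which adds the first 50 transcribed bases, is 77.3% G+C and holds 51 CpG, more than 99.3% of the 32851 windows in the table, whose median is 7. That of Camk1d holds 29, those of Camk2d, Camkk1, Camkk2 and Camk1 hold 31, 36, 42 and 15, and the second start of Camk1d holds 5. The Camk2b window has 3 GC boxes, 2 of them sharing a base, and that of Camk1d also has 3, of which 1 lies past the start and is not in the letters shown, and 35.7% of all windows have at least 1. Both strands of each window were also searched for the cyclic AMP response half-site TGACG, the C/EBP site TTGCNNAA, the PU.1 core GAGGAA, the palindromic glucocorticoid response element and the TATA box TATAAA. None of these letter strings is in the Camk2b window. TGACG, found in 20.8% of all windows, occurs once in those of Camk1 and Camkk1, and GAGGAA, found in 28.3%, once in that of the second Camk1d start.

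By the root mean square difference of log2 CPM over the 6 libraries, each gene centred on its Control mean, the profiles most like Camk2b among 11034 genes of at least 1 CPM were H2-Q9 (0.394), H2-Q7 (0.428), LOC68395 (0.433), Apol11b (0.457) and H2-Q6 (0.460). The H2-Q genes encode MHC class I proteins and are near-identical copies, so the values of single ones are uncertain, and Apol11b is an apolipoprotein L gene. H2-Q9 was at 6.82 ± 0.159 in Control and 24.9 ± 0.197 CPM in CUMS, and Apol11b 0.670 ± 0.318 and 2.82 ± 0.309 CPM. These values describe likeness over 6 libraries in 2 groups and no more.

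The genes around the kinases were taken from 8 lists with 100 genes, of which 79 were tested. With edgeR 4 of the 79 (5.06%) passed, 2 higher and 2 lower, near the 4.50% of all genes tested, while DESeq2 called 10 of the 72 list genes to which it gave an adjusted p, and 1134 of 11473 such genes in all. The edgeR median log2 fold change over the 79 was 0.01. Among calmodulin genes and calmodulin-binding peptides no gene of 4 tested passed (1 with an unadjusted p below 0.05, and 1 by DESeq2; median -0.13). Calm3, which encodes calmodulin, was at 180 ± 6.52 CPM among Control libraries and 169 ± 13.2 CPM among CUMS libraries, with overlapping groups (adjusted p = 0.47, edgeR).

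Among 9 tested genes of other kinases, mostly of the CaMK group, and of CaMKII inhibitors, 1 rose and 8 did not pass (median 0.07). The gene that rose, Eef2k, encodes a calmodulin-dependent kinase that is not of the CaMK group by sequence. Its product slows translation by phosphorylating elongation factor eEF2. Eef2k measured 46.6, 45.5 and 43.8 CPM in Control and 60.3, 60.3 and 57.2 CPM in CUMS. The groups were well apart, at a log2 fold change of 0.39 ± 0.05 (SE; adjusted p = 0.0019, edgeR). Phkg2, a catalytic subunit gene of phosphorylase kinase, measured 43.2 ± 1.95 and 44.7 ± 2.68 CPM (adjusted p = 0.80, edgeR). Camk1g, Pnck and the CaMKII inhibitor gene Camk2n1, singled out afterwards as the closest relatives, failed the filter, with at most 25, 18 and 21 estimated counts in any library. The other CaMKII inhibitor gene, Camk2n2, passed it but was at or under the floor in 3 of 6 libraries. It had 38, 9 and 15 estimated counts in Control and 0, 8 and 18 in CUMS, with overlapping groups (adjusted p = 0.55, edgeR).

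Among 28 tested genes of calcium entry, release and removal, 1 rose (median -0.03). Trpm2, a calcium-permeable channel gene of phagocytes opened by ADP-ribose and oxidants, measured 956, 991 and 986 CPM in Control and 1100, 1240 and 1190 CPM in CUMS, a log2 fold change of 0.27 ± 0.05 (SE; adjusted p = 0.0066, edgeR). Every CUMS library was above every Control library. Atp2a3, a calcium pump gene of the endoplasmic reticulum, measured 552 ± 15.9 and 570 ± 13.2 CPM (adjusted p = 0.63, edgeR).

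**Figure D5:**
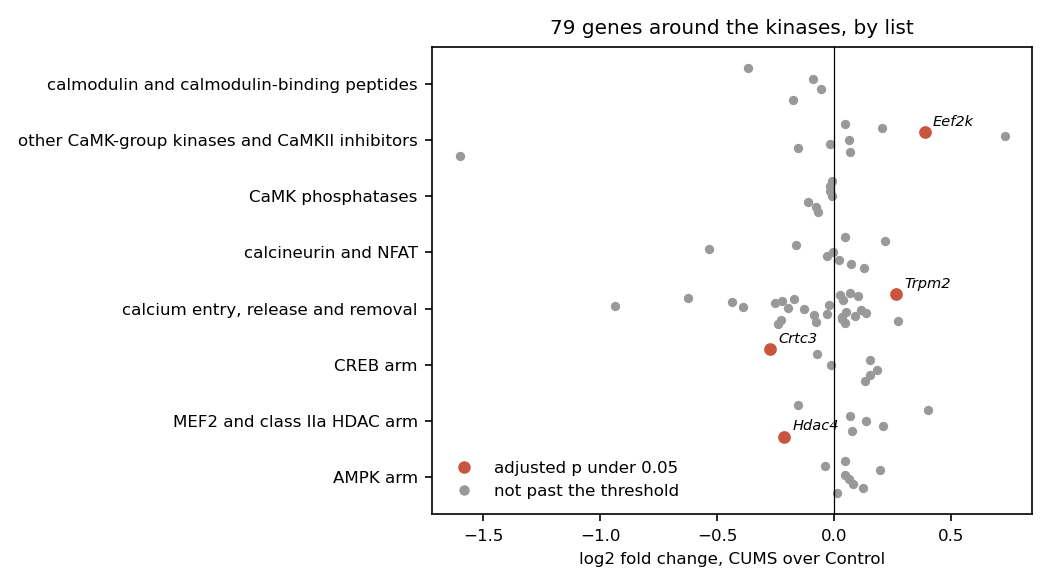
Log2 fold change of CUMS over Control for the 79 tested genes of the 8 lists, 1 point per gene, red where the adjusted p was under 0.05. The 4 red points are Eef2k at 0.39, Trpm2 at 0.27, Hdac4 at -0.21 and Crtc3 at -0.27. Eef2k is drawn with the CaMK-group kinases but is not of that group by sequence.

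Among phosphatases that act on these kinases, no gene of 7 passed with edgeR (0 with an unadjusted p below 0.05, and 0 by DESeq2; median -0.02), with Ppp1ca at 448 ± 25.3 and 414 ± 22.8 CPM and Ppp1cb at 414 ± 16.6 and 412 ± 10.2 CPM. Of 9 calcineurin and NFAT genes none passed with edgeR (2 with an unadjusted p below 0.05, and 2 by DESeq2; median 0.02). The calcineurin subunit gene Ppp3ca measured 289 ± 6.58 and 283 ± 10.2 CPM, and the transcription factor gene Nfatc1 172 ± 3.06 and 189 ± 7.89 CPM (adjusted p = 0.81 and 0.14, edgeR). With DESeq2 Nfatc1 passed (adjusted p = 0.037).

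Downstream of the kinases, 1 of 7 genes of the CREB arm fell (median 0.13). Crtc3, a coactivator of CREB, fell by 0.27 ± 0.06 (SE) on the log2 scale, 52.0 ± 1.77 against 43.0 ± 3.21 CPM (edgeR adjusted p = 0.035). Leaving out a library ended this call (0.078 to 0.14) in every case but CUMS replicate 2. Creb1, which encodes CREB itself, measured 125 ± 6.67 and 139 ± 5.75 CPM, and the acetyltransferase gene Crebbp 109 ± 4.59 and 123 ± 7.94 CPM (adjusted p = 0.14 and 0.10, edgeR). With DESeq2 both passed (adjusted p = 0.042 and 0.021), and Crebbp also with edgeR without CUMS replicate 1 (log2 fold change 0.235, adjusted p = 0.034). Of 7 genes of the MEF2 and class IIa HDAC arm, 1 fell (median 0.08). Hdac4, a class IIa histone deacetylase that CaMK phosphorylation moves out of the nucleus, fell by 0.21 ± 0.05 (SE) on the log2 scale, 172 ± 5.87 against 149 ± 8.72 CPM (edgeR adjusted p = 0.038). Here the call was lost (0.062 to 0.16) for every library left out but Control replicate 1. Mef2a measured 140 ± 9.54 and 147 ± 3.33 CPM. Of 8 genes of the AMPK arm, a target of Camkk2, none passed with edgeR (2 with an unadjusted p below 0.05, and 0 by DESeq2; median 0.06), with Prkab1 at 165 to 168 and 167 to 187 CPM and Cab39 at 213 ± 2.74 and 214 ± 4.24 CPM.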

How the data were processed

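The deposited values are 1 whole number per gene and library, taken as estimated counts. Per the submitters' processing notes, the build was mm10 and the tools included featureCounts 1.6.4, HISAT2 2.1, cutadapt 1.16.5, bcl2fastq 2.19 and DESeq2 2.11.40.6, named there with no roles. The step of 4 in the values and 1588 of 47561 rows with assembled-transcript identifiers (STRG) are why the values were not taken as counts of read pairs. Of rows with the same symbol, the largest by total was kept. The counts entered edgeR 4.0.16 (R 4.3.3) as deposited: filterByExpr at its defaults left 15777 genes, libraries were scaled by TMM, and the groups were compared over all genes with the quasi-likelihood F test and Benjamini-Hochberg adjustment at 0.05. Standard errors come from the F statistic. The fit was tested on simulated data. Log2 CPM used a prior count of 2. Coordinates and lengths are from GENCODE M21 (GRCm38), matched by symbol. Intervals of counting error were not computed, and the floor of 3 read pairs covers counting error only.

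The 9 genes and all lists were chosen with earlier results of these data known. Genes named around the kinases were, in each list, those past the threshold and the 2 with the highest mean CPM, and for Camk2b the 3 nearest protein-coding genes on each side and the 5 most similar profiles of at least 1 CPM. Of the genes this rule names, 2 are not reported here. Alternatives were DESeq2 1.42.0, limma 3.58.1 (voom), RLE scaling, other filters, counts divided by 4, summed rows, the replicate number as a block, each library left out, and another gene length.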

Additional observations from a re-analysis of the deposited data

How the results depend on the processing

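Camk2b kept its direction under all 14 alternatives to the fit, with log2 fold changes of 1.82 to 2.34 when 1 library was left out and 2.00 to 2.11 otherwise. The number of genes called among all tested, 710, was 1134 with DESeq2 and ran from 305 to 697 when 1 library was left out. The 4 pathway genes called became 10 with DESeq2 and ran from 2 to 4 when 1 library was left out, while Eef2k and Trpm2 passed in all 14 alternatives. Deviations from the group means were close to uncorrelated between same-numbered libraries (correlation 0.00813, 0.00344 and -0.0265 for numbers 1 to 3). These correlations cannot show whether the libraries were handled in pairs, and the labels read here do not say. With the replicate number as a block, 7 pathway genes and 931 of all genes were called, Creb1 and Crebbp among the former (adjusted p = 0.048 and 0.034). The share of Camk2b among the 4 CaMKII genes in CUMS was 1.72% from plain CPM with no length (0.40% in Control), 1.56% with the longest transcript, and 1.03% to 1.42% without 1 library. The order of levels kept 6 of 9 ranks with the longest transcript. Signs turned for values near 0: Camk2g was 0.014 without CUMS replicate 3 (-0.051 to 0.014 over all libraries left out), Ppp1cb was 0.012, 0.001 and 0.031 without CUMS replicate 2, CUMS replicate 3 or Control replicate 2, Nudcd3 was 0.039, 0.011 and 0.011 without the same libraries, and Cab39 was -0.003 without CUMS replicate 2. Over all libraries left out in turn the last 3 genes ran from -0.026 to 0.031, from -0.103 to 0.039 and from -0.003 to 0.025. The cause was not tested. Depth limits Camk2a and Camk4, which are near the floor, and Camk2b in Control, at 7.25 to 14.8 read pairs per library.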
